A study of Mus musculus with 31 samples.

Results

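Matrix metalloproteinases (MMPs) and their tissue inhibitors (TIMPs) were followed as a family of 10 named genes, Mmp2, Mmp3, Mmp9, Mmp11, Mmp13, Mmp14, Mmp19, Timp1, Timp2 and Timp3. The family was listed by gene symbol, with earlier results of these data known. All 10 were among the 54456 genes listed for whole tumours, and 9 were among the 12444 genes with a symbol listed for sorted tumour cells, where Mmp13 was not listed. The tumours came from AB1-mCherry, a murine mesothelioma cell line carrying the red fluorescent protein mCherry, grown for 10 days in untreated female BALB/c mice aged 12 weeks. The groups were pleural (6 whole tumours and 5 sorted libraries), peritoneal (5 and 5) and subcutaneous (5 and 5), and the comparisons set the pleural and peritoneal sites against the subcutaneous site and against each other. The sorted cells were negative for the leukocyte antigen CD45 and positive for mCherry, so they are labelled as cancer cells. Of 12 mesothelial markers 5 were listed in the sorted cells, summing to 183 to 346 TPM in pleural, 257 to 348 TPM in peritoneal and 192 to 263 TPM in subcutaneous libraries, while Wt1, Upk3b, Upk1b, Lrrn4, Krt19, Gpm6a and Aldh1a2 were not listed. All tumours derive from 1 cell line, whose brightest mCherry cells had been sorted and cultured before use, and each label names 1 mouse.

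MMPs are zinc-dependent proteases that cut extracellular matrix and many secreted or surface proteins. Most are secreted as inactive proenzymes. Pro-MMP2 is activated at the cell surface by the membrane-type enzyme MMP14 together with TIMP2, while MMP3 activates several other proenzymes, and TIMPs bind active MMPs and block them. In tumours, MMP2, MMP3 and TIMP3 are commonly made by fibroblasts and other mesenchymal cells, and MMP9 by macrophages and neutrophils. Transcript levels say nothing of the activity of the proteins.

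Levels are given as TPM, which scales reads by transcript length and by the total of the library, so genes can be compared within a table. Pooling all sites, Mmp9 had the highest median of the 10 genes in whole tumours, at 462 TPM, followed by Timp1 at 284 TPM, Mmp14 at 251 TPM and Timp2 at 211 TPM. Mmp2 stood at 39.9 TPM, Mmp11 at 22.5 TPM, Timp3 at 15.6 TPM, Mmp19 at 15.0 TPM, Mmp3 at 13.5 TPM and Mmp13 at 0.424 TPM. In sorted cells the order was led by Timp1 at 329 TPM, Mmp14 at 162 TPM and Timp2 at 156 TPM, and Mmp9 followed at 28.7 TPM. The ranges of Mmp9 and Timp1 in whole tumours, 259 to 735 TPM and 239 to 544 TPM, overlapped, and in subcutaneous tumours alone the median of Timp1 was 465 TPM beside 462 TPM for Mmp9. The ranges of Mmp14 and Timp2 overlapped in both tables, as did those of Mmp19, Timp3 and Mmp3 in whole tumours. The 2 tables were made separately and were not tested against each other. Mmp14 and Timp2 varied least between whole tumours, with 1.35 times and 1.25 times between the lowest and the highest library, while Mmp3 spanned 20.1 times and Mmp13 26.6 times.

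Calls below are from limma on log2(TPM + 1) with Benjamini-Hochberg adjustment over all genes tested in a table, and a gene passed at an adjusted p below 0.05. In bulk RNA, fewer cells of a type and less RNA per cell cannot be told apart. Within a table each library has a mouse name of its own, but 14 mouse names occur in both tables, so whole tumours and sorted cells are not independent sets of animals. The read depth behind each library cannot be recovered from TPM. Mmp13 in whole tumours and Mmp3 in sorted cells met the requirement of 1 TPM in 5 libraries only through the 5 subcutaneous libraries, so their calls add nothing to a count of members.

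The promoters of 4 members are shown because Mmp3, Mmp13 and Timp3 were lower in peritoneal than in subcutaneous tumours while Mmp11 was higher in peritoneal than in subcutaneous sorted cells. RefSeq promoter entries on GRCm38.p6, each with 250 bases before and 50 bases after the annotated start, were matched for 7 of 10 members, without Mmp2, Mmp9 and Mmp19. Coordinates refer to that build, which is not the build on which the authors quantified reads. Capitals mark motifs found by exact search on both strands, TGANTCA (the AP-1 site), TATAAA and GGGCGG (the core bound by Sp1-type factors), none of which overlapped in these promoters. The sequences, 5′ to 3′ on the gene's strand, are those of Mmp3 at chr9:7445572-7445871 (plus strand), Mmp13 at chr9:7272264-7272563 (plus strand), Timp3 at chr10:86300162-86300461 (plus strand) and Mmp11 at chr10:75932453-75932752 (minus strand).
Mmp3: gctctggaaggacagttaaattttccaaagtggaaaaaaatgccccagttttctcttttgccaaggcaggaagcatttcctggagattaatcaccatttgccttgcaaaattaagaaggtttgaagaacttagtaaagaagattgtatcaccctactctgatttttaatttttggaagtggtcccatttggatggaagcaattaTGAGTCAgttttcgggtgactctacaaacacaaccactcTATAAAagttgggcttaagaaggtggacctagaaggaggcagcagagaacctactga
Mmp13: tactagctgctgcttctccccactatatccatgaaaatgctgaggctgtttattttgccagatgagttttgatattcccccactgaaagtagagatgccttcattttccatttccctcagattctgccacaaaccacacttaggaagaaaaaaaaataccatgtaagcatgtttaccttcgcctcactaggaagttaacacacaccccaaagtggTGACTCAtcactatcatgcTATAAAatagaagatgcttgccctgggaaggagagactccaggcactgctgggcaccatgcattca
Timp3: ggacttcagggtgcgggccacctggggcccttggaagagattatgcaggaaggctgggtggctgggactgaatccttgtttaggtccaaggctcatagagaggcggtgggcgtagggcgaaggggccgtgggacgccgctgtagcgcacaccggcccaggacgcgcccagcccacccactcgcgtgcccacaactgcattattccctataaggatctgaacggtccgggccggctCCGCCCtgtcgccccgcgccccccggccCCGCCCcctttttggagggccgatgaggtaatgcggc
Mmp11: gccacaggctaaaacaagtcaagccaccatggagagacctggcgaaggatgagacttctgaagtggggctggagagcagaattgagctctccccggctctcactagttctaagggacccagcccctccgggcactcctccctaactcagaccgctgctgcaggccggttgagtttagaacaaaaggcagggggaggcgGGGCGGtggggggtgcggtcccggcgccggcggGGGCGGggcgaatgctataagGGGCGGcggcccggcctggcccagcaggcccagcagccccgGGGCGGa
Mmp3 and Mmp13 each held 1 TATAAA and 1 TGANTCA, the second beginning 46 bases before the annotated start in Mmp3 and 35 in Mmp13. Of 32851 mouse promoters of the same length, 7.81% hold TGANTCA and 13.6% hold TATAAA. Neither Mmp3 nor Mmp13 held GGGCGG, which occurs in 35.7% of promoters and was found at 4 positions in Mmp11 and 2 in Timp3. Base composition divided the same genes, with 40.0% G and C in the Mmp3 promoter and 43.7% in Mmp13, against 67.0% in both Timp3 and Mmp11. The Timp3 promoter shared none of the motifs found in Mmp3. Timp1 was also lower in peritoneal than in subcutaneous tumours, and its matched promoter is not shown. It held 1 GGGCGG, neither other motif, and 55.0% G and C. Mmp14 and Timp2, matched too, held 2 and 1 GGGCGG and neither other motif, with 56.0% and 68.7% G and C. A motif match is a description of letters and not a site of binding. Mmp3 and Mmp13 lie with Mmp12, Mmp1b, Mmp1a, Mmp10, Mmp8, Mmp27, Mmp20 and Mmp7 in a run of 13 genes on mouse chromosome 9, of which these 10 belong to the family.

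In sorted tumour cells, Mmp2, Mmp3 and Timp3 were the members that separated the sites most. Mmp2, the gelatinase that cuts denatured collagen and basement membrane collagen, had 1.60, 1.80, 1.69, 3.65 and 3.31 TPM in pleural cells, 2.87, 0.749, 3.71, 1.61 and 1.15 TPM in peritoneal cells, and 48.4, 22.4, 25.1, 23.2 and 21.2 TPM in subcutaneous cells. Every subcutaneous library was above every library of the other sites. The means were 2.41 ± 0.988 TPM in pleural cells and 2.02 ± 1.24 TPM in peritoneal cells, against 28.0 ± 11.5 TPM in subcutaneous cells (SD, n = 5 each). On the log2(TPM + 1) scale this was a difference of -3.07 ± 0.29 (SE) for pleural against subcutaneous cells (limma, adjusted p = 1.22e-05) and of -3.29 ± 0.29 for peritoneal against subcutaneous cells (adjusted p = 4.37e-06).

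Timp3, the inhibitor that stays bound to the matrix and also blocks ADAM proteases, had 1.40, 0.895, 1.01, 1.83 and 3.21 TPM in pleural cells, 0.788, 0.384, 2.02, 0.406 and 0.288 TPM in peritoneal cells, and 40.3, 14.4, 15.3, 21.6 and 15.7 TPM in subcutaneous cells. Its groups did not overlap either against the subcutaneous site. The mean in subcutaneous cells was 12.9 times that in pleural cells and 27.6 times that in peritoneal cells, with log2 differences of -3.03 ± 0.30 (adjusted p = 2.11e-05) and -3.63 ± 0.30 (adjusted p = 2.81e-06). Only 1 of the 5 peritoneal libraries reached 1 TPM, and subcutaneous library 1, at 40.3 TPM, raised the subcutaneous mean. The sizes of these ratios are therefore uncertain. Mmp3, the stromelysin that activates other pro-MMPs, had 0.259, 0.574, 0.693, 0.514 and 0.968 TPM in pleural cells, 0.543, 0.237, 0.976, 0.569 and 0.255 TPM in peritoneal cells, and 32.2, 10.5, 8.81, 7.35 and 7.35 TPM in subcutaneous cells. The cavity libraries were all below 1 TPM, and the log2 differences of Mmp3 were -2.93 ± 0.30 (adjusted p = 2.83e-05) and -3.02 ± 0.30 (adjusted p = 1.55e-05), which the added pseudocount makes smaller than the ratio of TPM.

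Timp1, a secreted inhibitor of most MMPs, was the most abundant member in sorted cells and fell at both cavity sites, with log2 differences nearer 0. It had 291, 357, 314, 359 and 329 TPM in pleural cells, 255, 271, 294, 252 and 325 TPM in peritoneal cells, and 470, 485, 442, 558 and 491 TPM in subcutaneous cells. The groups did not overlap, and the log2 difference was -0.57 ± 0.09 for pleural cells (adjusted p = 0.00138) and -0.81 ± 0.09 for peritoneal cells (adjusted p = 2.35e-05). Under median-of-ratios scaling the pleural difference was -0.54 and its adjusted p 0.0735.

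Mmp19, an MMP expressed in many tissues, had 6.67, 7.15, 6.31, 5.90 and 7.57 TPM in pleural cells, 7.03, 5.65, 6.94, 8.05 and 3.70 TPM in peritoneal cells, and 15.4, 9.98, 10.3, 10.6 and 11.6 TPM in subcutaneous cells. All subcutaneous values were the higher ones, with log2 differences of -0.69 ± 0.16 for pleural cells (adjusted p = 0.0442) and -0.81 ± 0.16 for peritoneal cells (adjusted p = 0.00605). The peritoneal call was kept in all 15 fits that left out 1 library, the pleural call in 2 of 15, with adjusted p between 0.00730 and 0.132 and with subcutaneous library 1 left out at the upper end.

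Mmp11, stromelysin-3, which is activated inside the cell by furin and cuts few classical matrix proteins, went the opposite way at the peritoneal site. It had 23.5, 26.5, 22.2, 18.2 and 26.8 TPM in pleural cells, 40.9, 34.3, 37.2, 39.2 and 50.1 TPM in peritoneal cells, and 24.1, 28.2, 22.7, 24.1 and 22.7 TPM in subcutaneous cells. All 5 peritoneal libraries were above all 10 others. Mmp11 rose in peritoneal against subcutaneous cells by a log2 difference of 0.70 ± 0.12 (adjusted p = 0.00184) and was lower in pleural than in peritoneal cells by -0.76 ± 0.12 (adjusted p = 0.00323), while pleural and subcutaneous cells differed by -0.06 ± 0.12 (adjusted p = 0.937). Mitochondrially encoded genes held 2.91 to 4.50% of TPM in these peritoneal libraries, against 5.13 to 6.37% in pleural and 5.60 to 6.63% in subcutaneous libraries, and the part of this in the Mmp11 result was not tested. Without peritoneal libraries 2 and 5, which had the lowest sums of fibroblast markers, the Mmp11 differences were 0.66 (adjusted p = 0.00616) against subcutaneous cells and -0.73 (adjusted p = 0.00917) for pleural against peritoneal cells.

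**Figure D1:**
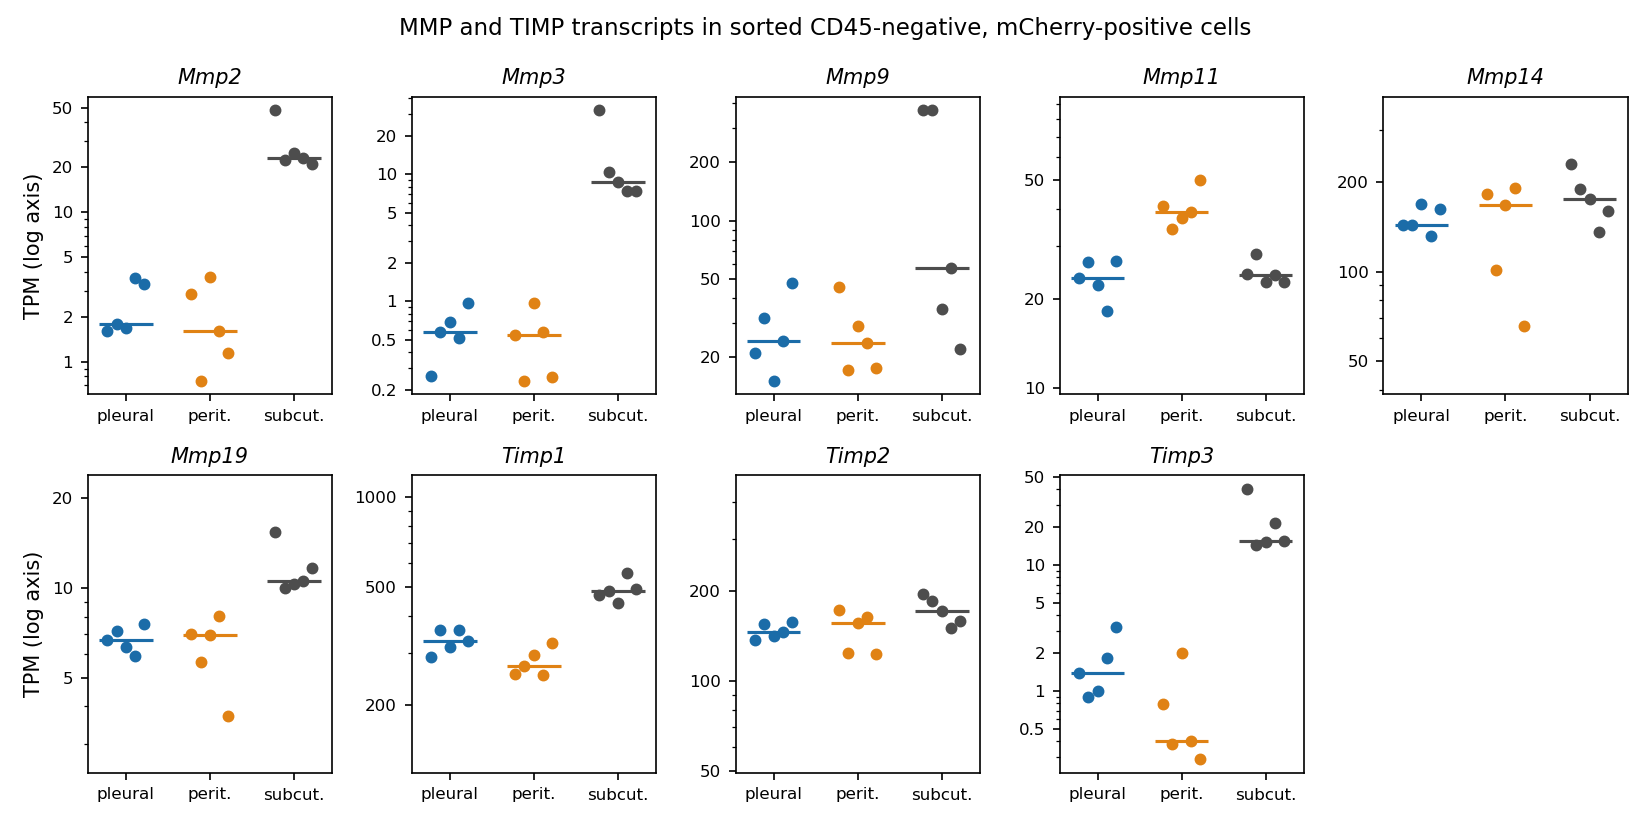
TPM (log axis) of the 9 listed members in sorted CD45-negative, mCherry-positive cells. Each point is 1 library in order of its number, pleural left, peritoneal middle and subcutaneous right, and each line is a group's median; Mmp2, Mmp3, Timp1, Mmp19 and Timp3 are highest in all 5 subcutaneous libraries, and Mmp11 in all 5 peritoneal libraries.

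Mmp14, the membrane-bound collagenase, Timp2 and the gelatinase Mmp9 passed in no comparison of sorted cells. Mmp14 had 132 to 168 TPM in pleural, 65.6 to 191 TPM in peritoneal and 136 to 229 TPM in subcutaneous cells, and its 2 lowest values, 101 and 65.6 TPM, were those of peritoneal libraries 2 and 5. Timp2 had 138 to 157 TPM in pleural, 123 to 174 TPM in peritoneal and 150 to 196 TPM in subcutaneous cells. Both genes overlapped between all sites.

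Mmp9 had 21.1, 31.8, 15.1, 24.1 and 47.8 TPM in pleural cells, 45.9, 17.2, 28.7, 23.6 and 17.6 TPM in peritoneal cells, and 368, 369, 35.2, 57.3 and 22.1 TPM in subcutaneous cells. Subcutaneous libraries 1 and 2 stood apart, and the other 3 lay within or near the range of the cavity sites. The log2 difference was -1.77 ± 0.66 for pleural cells (adjusted p = 0.285) and -1.83 ± 0.66 for peritoneal cells (adjusted p = 0.0846), and without those 2 libraries it was -0.44 (adjusted p = 0.986) and -0.50 (adjusted p = 0.447). The same 2 libraries held the most transcript of Ptprc, which encodes the CD45 that the sort selected against, at 12.9 and 7.48 TPM, against 0.228 to 1.58 TPM in the other subcutaneous, 0.291 to 2.05 TPM in the pleural and 0.233 to 0.946 TPM in the peritoneal libraries. The summed level of 11 listed macrophage markers was 41.5 to 138 TPM in pleural, 46.2 to 131 TPM in peritoneal and 38.7 to 1273 TPM in subcutaneous cells, with library 1 highest. In pleural against subcutaneous cells 0 of the 10 tested passed, beside 1.64% of all genes, with a median log2 difference of -1.40. Against subcutaneous cells 0 passed in peritoneal cells too, beside 11.1% of all genes, with a median of -1.52. A count of 0 here does not show equal levels. The 10 neutrophil markers other than S100a8 and S100a9 were not listed, and the summed level of those 2 was at most 18.4 TPM.

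Over the members, 5 of 9 passed as lower and 0 as higher in pleural against subcutaneous cells, where 1.64% of 12357 genes passed in either direction, 1.25% as lower and 0.397% as higher, and the groups of 3.11% of genes did not overlap, as those of 5 members, Mmp3 among them, did not. In peritoneal against subcutaneous cells 5 of 9 passed as lower and 1 as higher, where 11.1% of genes passed, 6.33% as lower and 4.75% as higher, and the groups of 9.48% of genes did not overlap, as those of 6 members, Mmp3 among them, did not. Mmp11 was the only one of 9 members to pass in pleural against peritoneal cells, as lower, where 9.96% of genes passed, 5.51% as lower and 4.45% as higher, and the groups of 9.57% did not overlap. Leaving Mmp3 aside, 4 of the other 8 passed as lower at each cavity site, and the groups of 4 in the pleural and 5 in the peritoneal comparison did not overlap. The median log2 difference of the 9 was -0.69 for pleural and -0.81 for peritoneal against subcutaneous cells, beside -0.02 and -0.03 over all genes tested. Leaving Mmp3 aside, the middle values of the other 8 were those of Mmp19 and Timp1. These were -0.69 and -0.57 in pleural cells and -0.81 for both genes in peritoneal cells. Both comparisons use the same subcutaneous libraries. Without subcutaneous libraries 1 and 2, 3 members passed in the pleural comparison, since Mmp19 missed the threshold and Mmp3 was no longer tested. Mmp2 then differed by -2.87 (adjusted p = 0.000234) and Timp3 by -2.84 (adjusted p = 0.000234) in pleural cells, and by -3.09 and -3.44 in peritoneal cells (adjusted p = 9.31e-05 and 2.96e-05), so both differences were nearly as large without them.

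Markers of fibroblasts moved with the same site. The summed level of the 11 listed of 12 fibroblast markers was 3213 to 4145 TPM in pleural, 2556 to 4403 TPM in peritoneal and 3620 to 6230 TPM in subcutaneous cells, with a median of 3608, 3774 and 5040 TPM. Of these 11 markers, 6 passed as lower in pleural against subcutaneous cells, with a median log2 difference of -0.81, beside 1.25% of all genes, and 7 passed as lower in peritoneal against subcutaneous cells, with a median of -0.91, beside 6.33% of all genes. The 6 listed endothelial markers summed to 6.54 to 26.3 TPM in pleural, 4.07 to 14.2 TPM in peritoneal and 26.1 to 40.9 TPM in subcutaneous cells, and Kdr, Tek, Vwf and Cldn5 were not listed. Of these 6, 2 passed as lower in pleural cells (median log2 difference -1.09), beside 1.25% of all genes. All 6 passed as lower in peritoneal cells (median -1.60), beside 6.33% of all genes. Mesothelioma lines can express fibroblast genes themselves, and the part of other cells in the Mmp2, Mmp3 and Timp3 differences was not tested.

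**Figure D2:**
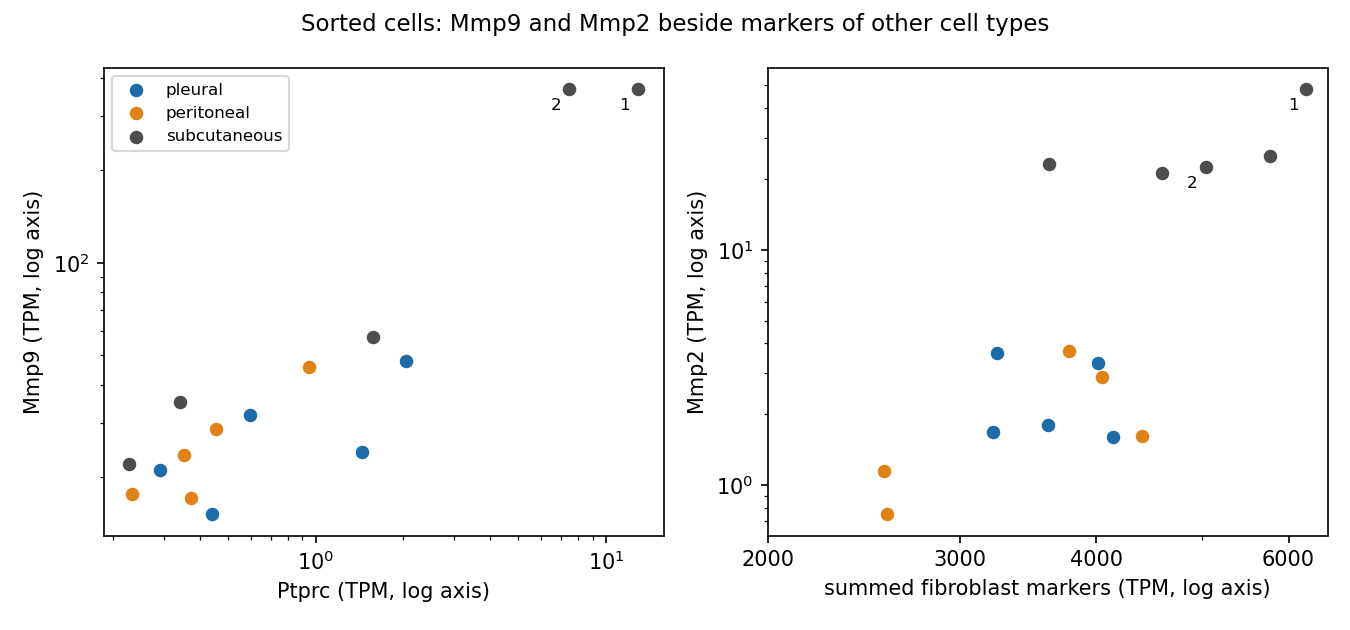
Sorted cells, 1 point per library on log axes. Left, Mmp9 against Ptprc (both TPM), where subcutaneous libraries 1 and 2, labelled, are highest on both axes; right, Mmp2 against the summed fibroblast markers (both TPM), where all 5 subcutaneous libraries lie above all others for Mmp2, and the smallest of their marker sums, 3620 TPM, is also reached by pleural and peritoneal libraries.

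In whole tumours Mmp2, Mmp3 and Timp3 were also lower at the peritoneal than at the subcutaneous site. Mmp2 had 28.6, 32.4, 27.6, 30.8 and 37.9 TPM in peritoneal tumours and 59.7, 104, 83.3, 123 and 120 TPM in subcutaneous tumours, and the groups did not overlap. Mmp3 had 8.0, 6.64, 4.54, 6.25 and 12.4 TPM in peritoneal tumours and 45.6, 36.6, 31.0, 35.8 and 47.8 TPM in subcutaneous tumours. Timp3 had 14.1, 11.1, 15.1, 14.9 and 13.9 TPM in peritoneal tumours and 35.5, 44.3, 39.2, 48.2 and 54.2 TPM in subcutaneous tumours. For Mmp3 and Timp3 too, each peritoneal tumour was below each subcutaneous tumour. The log2 differences were -1.57 ± 0.41 for Mmp2 (adjusted p = 0.0230), -2.28 ± 0.51 for Mmp3 (adjusted p = 0.0116) and -1.60 ± 0.33 for Timp3 (adjusted p = 0.00848). Calls for Mmp3 and Timp3 were kept in all 16 fits that left out 1 library, and the call for Mmp2 in 13, the exceptions being subcutaneous tumours 2, 4 and 5 with adjusted p up to 0.0551.

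The 6 pleural tumours were spread widely. Mmp2 had a lowest value of 20.5, a median of 33.3 and a highest of 133 TPM in the 6 pleural tumours, against the same 59.7 to 123 TPM in subcutaneous tumours. Timp3 had 10.1, 15.5 and 52.9 TPM as the pleural lowest, median and highest values, and Mmp3 had 6.33, 12.0 and 91.3 TPM. Pleural tumour 3 held the highest value of all 3 genes, and tumour 5 the next highest of Mmp2 and Timp3, at 66.0 and 31.0 TPM, while the other 4 lay near the peritoneal values. The log2 differences from subcutaneous tumours were -1.23 ± 0.39 for Mmp2 (adjusted p = 0.0491), -1.18 ± 0.32 for Timp3 (adjusted p = 0.0276) and -1.36 ± 0.49 for Mmp3, which did not pass (adjusted p = 0.0757). Leaving out 1 library at a time, the pleural call was kept in 3 of 16 fits for Mmp2 and in 10 of 16 for Timp3. Pleural tumours 3 and 5 also carried 518 and 875 TPM of skeletal muscle markers summed over 12 genes, against 11.5 to 15.0 TPM in the other 4, 14.7 to 17.5 TPM in peritoneal and 81.5 to 1474 TPM in subcutaneous tumours. Without pleural tumours 3 and 5 and subcutaneous tumour 2, the one with most muscle transcript, the pleural log2 differences were -1.80 for Mmp2 (adjusted p = 0.00170), -2.03 for Mmp3 (adjusted p = 0.00199) and -1.71 for Timp3 (adjusted p = 0.000119). Leaving out the pleural tumours with the highest Mmp2 and Timp3 makes larger differences likely whatever their muscle content. Subcutaneous tumours 1, 4 and 5, which were kept, held 580, 554 and 416 TPM of muscle markers, so the sites were not matched for muscle. Fibroblast markers summed to 3641 to 6470 TPM in pleural tumours, with tumour 3 highest, 4041 to 6604 TPM in peritoneal and 4923 to 6657 TPM in subcutaneous tumours. Of these markers 2 of 12 passed as lower at each cavity site, beside 3.4% of all genes in pleural and 3.64% in peritoneal tumours. Mesothelial markers went the other way, with 7 of 11 passing as higher in pleural tumours (median log2 difference 0.84) and 10 of 11 in peritoneal tumours (median 1.50), both against subcutaneous tumours, and 0 as lower. Of all genes 9.4% passed as higher in pleural and 8.52% in peritoneal tumours. The part of fibroblasts, muscle, mesothelium or other neighbouring tissue in these values was not tested.

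Timp1 had 239 to 497 TPM in pleural tumours, with a median of 260 TPM, 298, 239, 267, 275 and 264 TPM in peritoneal tumours, and 307, 544, 465, 454 and 483 TPM in subcutaneous tumours. Every peritoneal tumour was below the subcutaneous range, while pleural tumour 3, at 497 TPM, was within it. The log2 difference was -0.61 ± 0.17 for pleural (adjusted p = 0.0297) and -0.72 ± 0.18 for peritoneal tumours (adjusted p = 0.0182). Without subcutaneous tumour 2 these were -0.54 (adjusted p = 0.0930) and -0.65 (adjusted p = 0.0525).

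Mmp13, collagenase-3, which cuts fibrillar collagen, was below 1 TPM in every tumour outside the subcutaneous site. It had a lowest value of 0.201, a median of 0.406 and a highest of 0.532 TPM in pleural tumours, 0.274, 0.219, 0.126, 0.555 and 0.183 TPM in peritoneal tumours, and 3.36, 1.66, 2.08, 2.33 and 1.04 TPM in subcutaneous tumours. The subcutaneous group did not overlap with either of the others. The log2 differences were -1.11 ± 0.16 (adjusted p = 0.000717) for pleural and -1.25 ± 0.16 (adjusted p = 0.000316) for peritoneal tumours, and the ratios of mean TPM were 5.37 and 7.72, higher in subcutaneous tumours.

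Mmp14 was 234 ± 18.4 TPM in pleural tumours (SD, n = 6) against 276 ± 15.1 TPM in subcutaneous tumours (n = 5), a log2 difference of -0.24 ± 0.07 (limma, adjusted p = 0.0289), and 256 ± 26.4 TPM in peritoneal tumours, where it did not pass (-0.11 ± 0.07, adjusted p = 0.270). The groups overlapped, and the pleural call was kept in 9 of 16 fits that left out 1 library. Mmp9 was 405 ± 114 TPM in pleural, 543 ± 115 TPM in peritoneal and 488 ± 175 TPM in subcutaneous tumours, Mmp11 21.2 ± 3.02, 29.0 ± 7.72 and 21.7 ± 2.26 TPM, and Timp2 208 ± 14.7, 212 ± 16.3 and 222 ± 18.6 TPM, in the same order of sites. Mmp19 was 12.9 ± 2.33 TPM in pleural tumours against 17.1 ± 3.28 TPM in subcutaneous tumours (-0.39 ± 0.12, adjusted p = 0.0516). In peritoneal tumours Mmp19 was 15.4 ± 0.574 TPM. Mmp9, Mmp11, Timp2 and Mmp19 passed in no comparison of whole tumours. Mmp9 took 44.0 to 67.7% of the summed TPM of the 7 MMP members in pleural, 55.4 to 68.0% in peritoneal and 36.4 to 61.7% in subcutaneous tumours. Macrophage markers summed to 2705 to 5503 TPM in pleural, 2289 to 3923 TPM in peritoneal and 3408 to 5036 TPM in subcutaneous tumours. Of 12 macrophage markers, 3 passed as lower in pleural tumours (median log2 difference -0.21) and 6 in peritoneal tumours (median -0.72), both against subcutaneous tumours, beside 3.4% and 3.64% of all genes. The part of macrophages in the levels of the members was not tested.

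**Figure D3:**
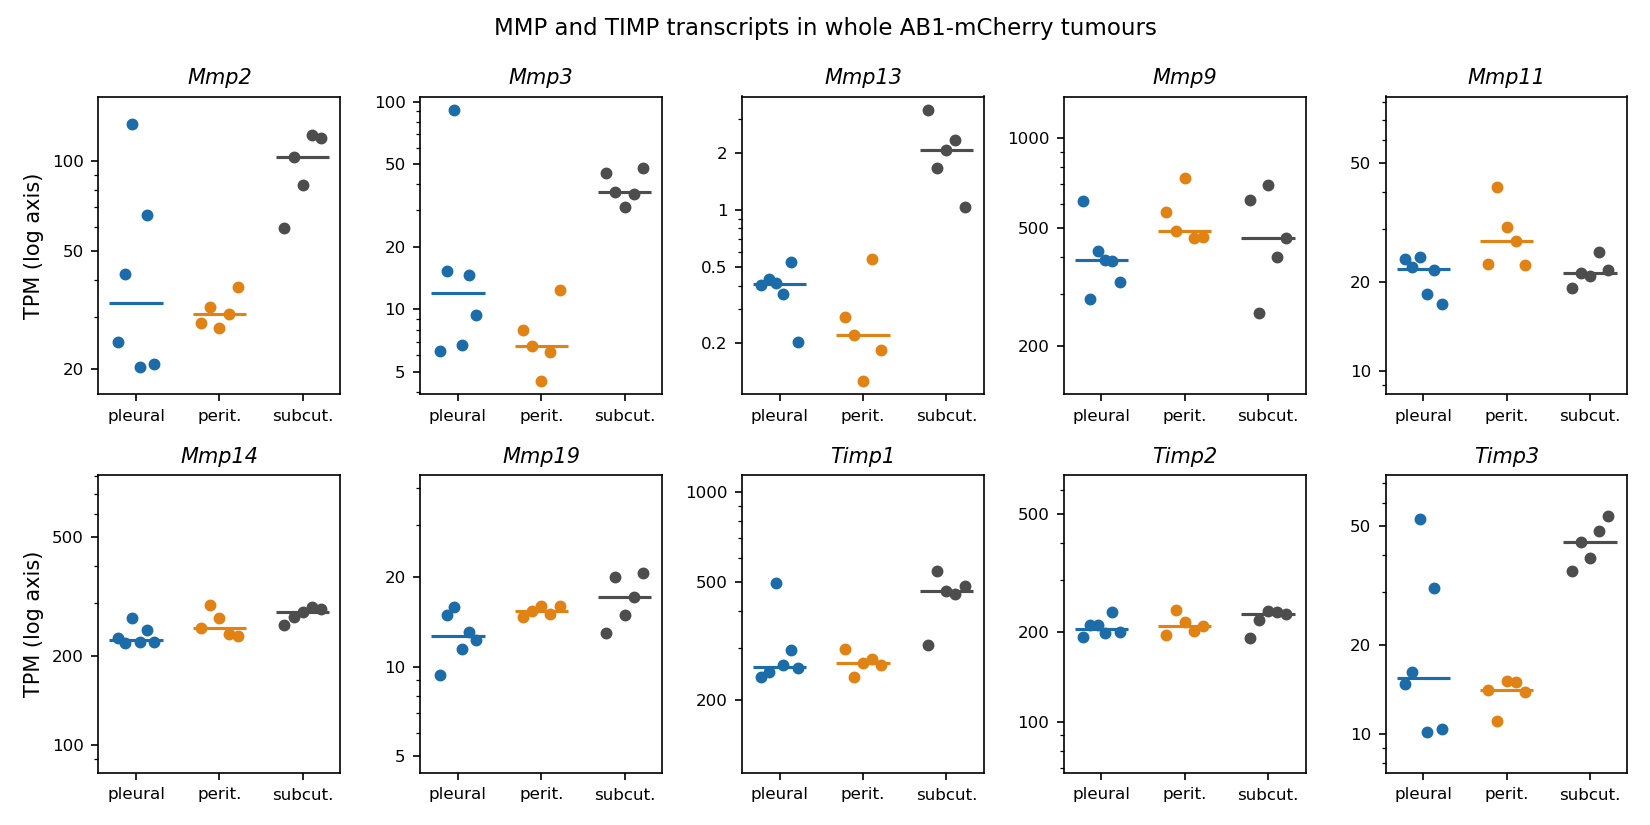
TPM (log axis) of the 10 members in whole tumours, 1 point per tumour in order of its number, pleural left (n = 6), peritoneal middle (n = 5) and subcutaneous right (n = 5), with each group's median as a line. Mmp13 is higher in all 5 subcutaneous tumours than in any other, and 1 pleural tumour reaches 133 TPM of Mmp2 and 91.3 TPM of Mmp3.

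Over the 10 members, 5 passed as lower and 0 as higher in pleural against subcutaneous tumours, where 12.8% of 15054 genes passed in either direction, 3.4% as lower and 9.4% as higher, and the groups of 7.76% did not overlap, as those of 1 member, Mmp13, did not. In peritoneal against subcutaneous tumours 5 passed as lower and 0 as higher, where 12.2% of genes passed, 3.64% as lower and 8.52% as higher, and the groups of 12.5% of genes did not overlap, as those of 5 members, Mmp13 among them, did not. Leaving Mmp13 aside, 4 of the other 9 passed as lower at each site, and the groups of 0 in the pleural and 4 in the peritoneal comparison did not overlap. The median log2 difference of the 10 was -0.50 for pleural and -0.42 for peritoneal tumours, beside 0.07 over all genes in each. Leaving Mmp13 aside, the middle value of the other 9 was that of Mmp19, -0.39 for pleural and -0.13 for peritoneal tumours. The 2 comparisons share the subcutaneous tumours. The pleural count rests on values close to the threshold. Of the 9 members other than Mmp13, 0 passed with no filter on low values, 1, Mmp14, with only the 2 sites fitted, 6 without pleural tumour 3 and 0 without pleural tumour 2, 4 or 7 or subcutaneous tumour 2, 4 or 5. Without pleural tumour 1 it was 2, and without subcutaneous tumour 3 it was 1, Timp3. Without subcutaneous tumour 2 the peritoneal count was 2, and with no filter Mmp2 missed the threshold (adjusted p = 0.0569). Between pleural and peritoneal tumours limma passed 0 of 10 members, and 1, Mmp11, had an unadjusted p under 0.05, where 0.0531% of genes passed, 0.0266% as lower and 0.0266% as higher. The groups of 0 members and of 1.14% of genes did not overlap, and the median log2 difference was 0.04, beside 0.00 over all genes. Differences ran from -0.44 ± 0.23 for Mmp9 to 0.92 ± 0.49 for Mmp3.

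**Figure D4:**
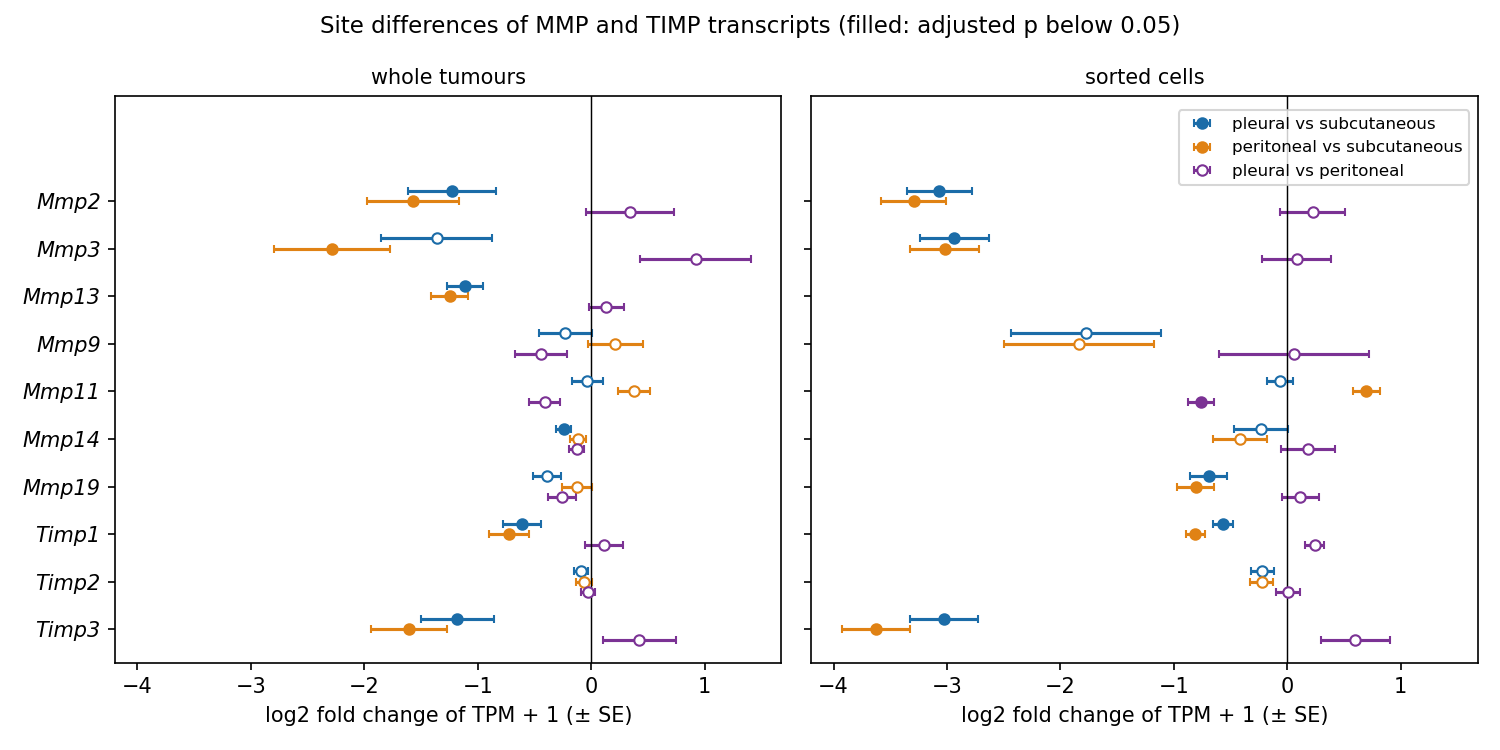
Log2 differences of TPM + 1 with their standard errors for each member, in whole tumours (left) and sorted cells (right); filled points passed at an adjusted p below 0.05 and Mmp13 was not listed in sorted cells. Mmp2, Mmp3 and Timp3 lie near -3 in sorted cells at both cavity sites and between -1.18 and -2.28 in whole tumours.

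Mmp2, Timp3 and Mmp3 also tracked each other library by library. Across the 16 whole tumours Mmp2 and Timp3 had a Pearson r of 0.970 and a Spearman rho of 0.903, and across the 15 sorted libraries 0.985 and 0.918; Mmp2 and Mmp3 had r of 0.913 and 0.975. These values pool the sites and libraries that differ in marker content, and are a description. The gene outside the family most like each member over the 16 tumours was Adamts2 for Mmp2 (r = 0.969), Cxcl14 for Timp3 (0.964), Abi3bp for Mmp3 (0.957), C1qtnf3 for Mmp13 (0.963), Acp5 for Mmp9 (0.950) and Cthrc1 for Timp1 (0.939). For Mmp14 it was Inhbb (0.912), for Mmp19 Rtn4rl2 (0.889), for Timp2 Nceh1 (0.860) and for Mmp11 Tab1 (0.846).

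The wider family was mostly below the level tested in whole tumours and mostly not listed in sorted cells. Of 17 other MMP and TIMP genes, 5 entered the test for whole tumours. In sorted cells 2 of the 17 were listed, and these 2 were tested. Mmp23 was 41.8 ± 3.70 TPM in pleural, 52.2 ± 3.24 TPM in peritoneal and 40.8 ± 4.32 TPM in subcutaneous sorted cells (SD, n = 5 each), and like Mmp11 it was higher in peritoneal cells, by 0.35 ± 0.09 against subcutaneous (limma, adjusted p = 0.0179), and lower in pleural than in peritoneal cells by -0.32 ± 0.09 (adjusted p = 0.0334). Mmp25, a membrane-anchored enzyme of leukocytes, was 1.73 ± 0.744 TPM in peritoneal tumours against 4.10 ± 1.23 TPM in subcutaneous tumours (-0.91 ± 0.23, adjusted p = 0.0219). The other comparisons of this list gave 0 calls in limma, with 2 of 5 genes at an unadjusted p under 0.05 in pleural against subcutaneous tumours, 0 of 5 in pleural against peritoneal tumours and 1 of 2 in pleural against subcutaneous cells. Among the neighbours of Mmp3 and Mmp13, Mmp27 was below the level tested, at 0.0261 to 0.159 TPM in pleural, 0.0289 to 0.177 TPM in peritoneal and 0.297 to 0.968 TPM in subcutaneous tumours, and these groups did not overlap against the subcutaneous one. Its neighbours Mmp8 and Mmp10, also below the level tested, did not share this order, with means of 0.602 and 0.0425 TPM in pleural, 0.591 and 0.258 TPM in peritoneal and 0.221 and 0.146 TPM in subcutaneous tumours. Mmp12, the macrophage elastase, had 1.05 to 2.92 TPM in pleural, 2.03 to 6.28 TPM in peritoneal and 1.54 to 10.1 TPM in subcutaneous tumours and did not pass.

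A list of 21 genes that activate, anchor or clear MMPs held 18 tested genes in whole tumours and 13 in sorted cells. In sorted cells 1 passed as higher and 1 as lower in pleural against subcutaneous cells, beside 0.397% and 1.25% of all genes. In peritoneal against subcutaneous cells 0 passed as higher and 7 as lower, beside 4.75% and 6.33%, and in pleural against peritoneal cells 5 passed as higher and 0 as lower, beside 4.45% and 5.51%. Serpine2, a protease inhibitor of plasminogen activators and thrombin, followed the pattern of Timp3, with 1.43 ± 0.470 TPM in pleural and 0.744 ± 0.581 TPM in peritoneal cells against 8.57 ± 3.88 TPM in subcutaneous cells (-1.92 ± 0.26, adjusted p = 0.000359, and -2.44 ± 0.26, adjusted p = 2.1e-05). Bsg, a surface glycoprotein that induces MMPs, was 586 ± 36.5 TPM in pleural against 473 ± 34.9 TPM in subcutaneous cells (0.31 ± 0.07, adjusted p = 0.0343). The urokinase receptor Plaur was 136 ± 24.8 TPM and Cd44, a surface anchor of MMP9, 107 ± 25.0 TPM in pleural cells, against 84.1 ± 11.4 and 64.2 ± 15.0 TPM in peritoneal cells (adjusted p = 0.0110 and 0.0152). Ctsk, a collagen-cutting cathepsin, was 14.8 ± 9.14 TPM in peritoneal against 164 ± 169 TPM in subcutaneous cells (-2.75 ± 0.68, adjusted p = 0.0192), with an SD above its mean in the subcutaneous cells. Without peritoneal libraries 2 and 5, 3 of the list passed in peritoneal against subcutaneous cells and 1 in pleural against peritoneal cells.

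In whole tumours 2 of this list passed as higher and 3 as lower in pleural against subcutaneous tumours, beside 9.4% and 3.4% of all genes, and 2 as higher and 5 as lower in peritoneal against subcutaneous tumours, beside 8.52% and 3.64%. In pleural against peritoneal tumours limma passed 0 of 18 (2 at an unadjusted p under 0.05), beside 0.0531% of all genes. A2m, the plasma inhibitor that traps active proteases, was 3.67 ± 2.52 TPM in pleural tumours (SD, n = 6) and 8.54 ± 4.29 TPM in peritoneal tumours, against 0.587 ± 0.243 TPM in subcutaneous tumours (n = 5 each), with log2 differences of 1.38 ± 0.34 (limma, adjusted p = 0.0188) and 2.50 ± 0.36 (adjusted p = 0.000623). Sdc1, a heparan sulphate proteoglycan shed by MMPs, was 50.5 ± 5.37 TPM in pleural and 54.3 ± 3.74 TPM in peritoneal tumours, against 89.6 ± 9.01 TPM in subcutaneous tumours, a log2 difference of -0.81 ± 0.08 (adjusted p = 1.33e-05) and -0.71 ± 0.08 (adjusted p = 0.000109). Itgb3, the subunit of the integrin that can hold MMP2 at the surface, was 3.74 ± 0.791 TPM in pleural and 3.56 ± 0.594 TPM in peritoneal tumours, against 5.70 ± 1.53 TPM in subcutaneous tumours (adjusted p = 0.0390 and 0.0333).

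In the GENCODE annotation of GRCm38, the gene bodies of 5 members overlap that of another coding gene. Timp1 overlaps Syn1, Timp3 overlaps Syn3, Mmp11 overlaps Chchd10 and Mmp19 overlaps Tmem198b on the opposite strand, and Timp2 overlaps Cep295nl on the same strand. Overlap of exons was not examined, and whether quantification used strand is not given in the sources used here. Whether any reads could be shared by the genes of such a pair is therefore not known.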

How the data were processed

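RNA of 16 whole tumours and 15 sorted libraries was sequenced as single-end 50 bp reads, per the labels' protocols. Per the submitters' processing notes the authors used kallisto and GRCm39; no version, annotation release or strand setting is stated there. The deposited values are TPM per gene, in 1 table for each kind of sample. Whole tumours sum to 1000000 TPM each, sorted libraries to 996124 to 998055 TPM, and 17 sorted entries named by calendar dates were dropped. TPM keeps no read numbers, so depth and the precision it gives are unknown. Groups and replicate numbers come from the mouse names in the labels. By those names, the peritoneal whole-tumour columns numbered 3, 4 and 5 belong to mice 2, 3 and 4, and the mouse number is the one used here.

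Values were taken as log2(TPM + 1). A gene was tested if 5 or more libraries reached 1 TPM (15054 and 12357 genes). The test was limma 3.58.1, run in R 4.3.3 with the trend option and 1 fit of the 3 sites per table, Benjamini-Hochberg adjustment over all genes and a threshold of 0.05. A self-test on simulated data was run first. The 10 members, the other lists and the markers were chosen with earlier results of these data known. All members are named; of each other list at most 3 called genes per comparison, those with the largest fold change, are named, with Ptprc and listed or unlisted markers. A gene that this rule would name is not reported here. For each member the tested gene with the highest Pearson r over the whole tumours, without predicted or clone names, is named. Other settings tried were a 0.1 TPM pseudocount, testing all genes, a filter of 5 TPM, 2 other scalings, only the sites compared, a replicate block, robust empirical Bayes, and leaving out libraries.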

Additional observations from a re-analysis of the deposited data

Results flagged for a closer look

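Of 57 sets of 4 or more libraries of 1 site, 7 held a library far from its nearest neighbour for the range of its group. For independent, normally distributed values about 1 in 20, or 2.85, would be flagged. Distances were taken on TPM without logs, and several members vary together, so 7 beside 2.85 does not show an excess. In whole tumours pleural tumour 3 was far above the rest for Mmp3, at 91.3 TPM with the next at 15.4 TPM, and for Timp1, at 497.0 TPM with the next at 294 TPM. In sorted cells subcutaneous library 1 was far above the rest for Mmp2, at 48.4 TPM with the next at 25.1 TPM, for Mmp3, at 32.2 TPM with the next at 10.5 TPM, and for Timp3, at 40.3 TPM with the next at 21.6 TPM. Subcutaneous library 2 was high for Mmp11, at 28.2 TPM with the next at 24.1 TPM, and peritoneal library 3 for Timp3, at 2.02 TPM with the next at 0.788 TPM. Pleural tumour 3 also had the highest fibroblast marker sum of the pleural tumours, 6470 TPM, and subcutaneous library 1 the highest of the sorted libraries, 6230 TPM; their part in these values was not tested.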

How the results depend on the processing

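Mmp2 and Timp3 in sorted cells passed against the subcutaneous site, in the same direction, under every setting run. Mmp3 passed wherever it was tested, but leaving out any subcutaneous library took it out of the test. Its passing is therefore no measure of stability. Of the counts of members passed, 5 in pleural against subcutaneous tumours became 1 with no filter and 1 with a replicate block, the 1 being Mmp13 in both, and 2, Mmp13 and Mmp14, with only the 2 sites compared, and ranged from 0 to 7 when 1 library was left out. The peritoneal count against subcutaneous tumours, 5, became 2, Mmp13 and Timp3, with the replicate block and ranged from 2 to 5. In sorted cells the pleural count, 5, became 3 without subcutaneous libraries 1 and 2 and ranged from 3 to 5, the peritoneal count ranged from 5 to 6 and the pleural against peritoneal count from 1 to 2, and between pleural and peritoneal tumours it was 0 throughout; the cause of the changes was not tested, apart from Mmp13 and Mmp3 leaving the test with fewer subcutaneous libraries. With the replicate block the sorted counts were 4, 6 and 1. All these counts include Mmp13 in tumours and Mmp3 in sorted cells wherever they passed, though their calls add nothing to a count. Replicate numbers did not pair the libraries: 4 of 14 same-numbered pairs of tumours and 3 of 15 of sorted libraries had a correlation above 0.1, and a library was closest to its own number in 7 of 28 and 7 of 30 cases, so a call lost with the block is not described as a weaker effect. Directions turned only for members that had not passed, with log2 differences as follows. For pleural against subcutaneous, Mmp11 was 0.0281 in tumours with the block (-0.0780 to 0.0265 leaving out 1 library) and 0.0032 in sorted cells without subcutaneous 1 and 2 (-0.11 to 0.0213). For pleural against peritoneal tumours without pleural 3 and 5 and subcutaneous 2, Mmp2 was -0.27, Timp1 -0.0889 and Timp3 -0.11, and leaving out 1 library gave -0.0021 to 0.53 for Mmp2, -0.0442 to 0.17 for Timp1 and -0.0618 to 0.0143 for Timp2. Without peritoneal sorted libraries 2 and 5, an alternative chosen after seeing the data, Mmp14 was 0.0348 against subcutaneous cells, and for pleural against peritoneal cells Mmp2 was -0.13, Mmp3 -0.0887, Mmp9 -0.27, Mmp14 -0.26, Mmp19 -0.11 and Timp2 -0.16. Timp2 was there also -0.0026 with median-of-ratios scaling and -0.0219 with quantile normalization, and leaving out 1 library gave -0.0564 to 0.0660 for Timp2, -0.0601 to 0.32 for Mmp14, -0.0318 to 0.20 for Mmp19 and -0.15 to 0.28 for Mmp9. No other member changed direction. Depth is unknown, so levels under 1 TPM have unknown counting error. Such levels were those of Mmp13, of Mmp3 in sorted cells and of Timp3 in most peritoneal sorted libraries.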
